A study of Mus musculus with 12 samples.

Results

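Peaks of anti-FLAG signal from cells with tagged GZF1 were shared by both embryonic stem cell lines in 347 of 2462755 autosomal bins of 1 kb (0.0141%). GZF1 is a nuclear protein with a BTB domain and a row of zinc fingers, and the series concerns its part in imprinting of the Dlk1-Dio3 domain. A bin was taken as shared when its anti-FLAG read density stood well above the surrounding 20 kb in both lines and that of H3K27ac and of the Gzf1 knockout did not. Density was the number of reads divided by the mean per autosomal bin of the same library. Local enrichment was log2((density + 0.5)/(background + 0.5)), with the background taken as the median density of the 10 bins on each side. Both anti-FLAG libraries had to reach a 2.38-fold rise on this scale, called the threshold below, and H3K27ac and the knockout had to lie below a log2 value of 1. These 4 libraries therefore chose the bins, and their values below are a description. The libraries left for comparison were both wild types, a control with the same antibody and the input, together with gene position and promoter sequence.

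All cells were mouse embryonic stem cells, fixed with formaldehyde and digested with micrococcal nuclease before immunoprecipitation. The Cas9 line (Cas9-GFP in the labels) gave 6 libraries. These were wild type, a control and a Gzf1 knockout, each with anti-GZF1, the Gzf1-Flag overexpressing clone 35 with anti-FLAG M2, wild type with anti-H3K27ac, and an input without antibody. RGM, a 129xCAST line, gave 2 libraries, wild type with anti-GZF1 and the Gzf1-Flag overexpressing clone 56 with anti-FLAG M2. Gzf1-Flag was introduced by ectopic expression, each line was represented by 1 tagged clone, and each group was 1 library, so there was no replicate check and no test between libraries. An anti-FLAG library without the tag was not analysed here, and anti-FLAG background cannot be told apart from tagged protein by such a control.

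Depth ran from 10.1 M reads in the input and 21.8 M in RGM wild type to 94.2 M in the control, or 3.93, 8.61 and 35.8 reads per autosomal bin. The anti-FLAG libraries had 69.98 and 66.98 M reads in Cas9 and RGM. Over the 14 bins of the Gzf1 gene itself the mean density was 0.688 in the knockout and 0.903 in the control, against 1.47 in the input, and since the deleted part is not named in the labels this does not check the knockout. The median H3K27ac density was 2.61 at 19 starts of pluripotency genes, 2.59 at 22 starts of germline genes and 1.83 at all 31396 starts, and that of the input was 2.28, 1.66 and 1.67. Starts of pluripotency and germline genes were thus not set apart from each other by H3K27ac. The labelled cell type was therefore not checked by it, and a low H3K27ac value here is no evidence of missing acetylation.

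Chromatin immunoprecipitation recovers DNA fragments that an antibody pulls down with a protein, so a DNA-binding factor gives narrow peaks over the sites it occupies. Imprinted genes are expressed from the maternal or the paternal chromosome only, under the control of differentially methylated regions. In the Dlk1-Dio3 domain that region lies between the paternally expressed gene Dlk1 and the maternally expressed non-coding RNA gene Meg3, and is called the IG-DMR. H3K27ac marks active promoters and enhancers.

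Promoter sequence could be read for 48 of the 347 bins, those holding at least 150 bases of a RefSeq promoter (GRCm38.p6, 250 bases before to 50 after the start, read whole where it crossed the bin edge). Among 377 runs of 7 bases found in at least 6 of these 48 bins, ACCGTAA or its reverse complement TTACGGT stood furthest above its share in all promoter bins. It occurred on either strand in 7 of 48 (14.6%) and in 156 of 27425 autosomal promoter bins (0.569%), a ratio of 25.6. The second run, CCGTAAA, overlaps it by 6 letters and had a ratio of 15.5, and the third had 5.05. The run was picked by this search in the same bins, so it carries no test. Among the 11 promoter bins whose lower anti-FLAG enrichment was 2 or more, 5 held it (45.5%). The 6 matches that lie before a gene start are shown with 12 bases on each side, read in the direction of the gene and with the run in capitals, since they show how alike the surroundings are.
Urod: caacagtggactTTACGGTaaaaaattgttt
Fbxw10: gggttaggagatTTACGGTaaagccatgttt
Kif22: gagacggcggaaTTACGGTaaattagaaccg
Cd320: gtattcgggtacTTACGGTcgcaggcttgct
Nudt1: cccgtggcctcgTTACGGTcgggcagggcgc
Nrarp: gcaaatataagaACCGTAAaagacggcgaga
In GRCm38.p6 these lie at chr4:116994514-116994544 on the minus strand, chr11:62847042-62847072 (plus), chr7:127042500-127042530 (minus), chr17:33843038-33843068 (plus), chr5:140321432-140321462 (plus) and chr2:25180711-25180741 (plus). The run read TTACGGT along the gene in 5 of the 6, and 3 of those 5 continued with 3 adenines. It began 35 to 178 bases before the start. The Cd320 match lies 50 bases past the edge of its bin, and the others lie inside theirs.

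The 6 genes beside these windows have varied textbook roles. Urod encodes a decarboxylase of haem synthesis, Fbxw10 an F-box protein, Kif22 a chromosome-binding kinesin, Cd320 the cellular receptor for transcobalamin-bound vitamin B12, Nudt1 an enzyme that removes oxidised nucleotides and Nrarp a feedback inhibitor of Notch signalling. The Urod bin had the highest anti-FLAG enrichment of the 6, and the 250 bases before its start (chr4:116994414-116994663, minus strand) are shown in full because the run stands there once, in capitals.
Urod upstream: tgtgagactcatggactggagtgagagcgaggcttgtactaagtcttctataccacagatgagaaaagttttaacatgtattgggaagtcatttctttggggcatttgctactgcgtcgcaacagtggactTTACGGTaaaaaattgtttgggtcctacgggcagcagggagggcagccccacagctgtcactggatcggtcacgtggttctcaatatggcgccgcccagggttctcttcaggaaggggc

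Over all 156 promoter bins with the run, the 7 shared ones included, 14 reached the threshold in Cas9 anti-FLAG (8.97%), against 1.14% of 27269 without it. In RGM anti-FLAG 17 did (10.9%), against 8.02%, and for H3K27ac 11 did (7.05%), against 7.78%. The 7 shared bins reached the threshold in both anti-FLAG libraries by the rule, so these anti-FLAG shares partly restate the choice of bins. Outside the shared bins the median anti-FLAG enrichment was 0.39 with the run and 0.27 without it in Cas9, and 0.44 and 0.34 in RGM. The shares at the threshold there were 4.70% and 0.988% in Cas9 and 6.71% and 7.89% in RGM. The rule had taken out bins high in both only where H3K27ac and the knockout lay below 1. Most promoters with the run did not reach the threshold in either anti-FLAG library.

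Other short motifs were searched on both strands in the same promoter bins. TGCGC, which opens the consensus described for GZF1, occurred in 25 of 48 shared promoter bins (52.1%) and in 29.8% of all promoter bins. TGCCGC, the core of the ZFP57 motif, occurred in 7 (14.6%) against 11.8%, and TGCGC followed after 3 bases by TATA in 0 of 48 against 0.0146% (4 bins of 27425). TGCGC and the run ACCGTAA each hold a CpG. The shared promoter bins were rich in CpG, with a median of 19.5 per 300 bases against 6 over all promoter bins. The shares of TGCGC and of ACCGTAA were not set against promoters of like CpG content. The 27 bins with a lower anti-FLAG enrichment under 1.5 had a median of 22, and the 11 at 2 or more had 13, with TGCGC in 4 (36.4%). The weaker shared promoters were thus the ones richer in CpG.

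The anti-FLAG signal itself, which chose the bins, was a narrow peak in its median over the bins. The Cas9 anti-FLAG library reached the threshold in 1722 autosomal bins (0.0699%), RGM in 5170 (0.21%) and both in 945 (0.0384%), of which 598 were left out for H3K27ac or the knockout (0.545% and 0.045% of all bins stood at 1 or more in these). Median anti-FLAG density over the 347 bins was 6.49 in Cas9, and 3.04 and 2.88 in the bins 1 kb to either side. In RGM it was 5.30, with 2.61 and 2.64 beside it. Some bins passed over a low background with a density near the library mean. One on chromosome 1 from 94397001 had 1.03 in Cas9 and 0.79 in RGM. In 33 of the 347 bins, neither neighbouring bin had an enrichment of 0.5 or more in both anti-FLAG libraries. The 347 bins formed 274 separate stretches, of which 213 were a single bin, 50 had 2 bins, 10 had 3 and 1 had 4. Chromosome X, outside the rule, had 18 such bins of 171032 (0.0105%). All 19 autosomes held shared bins, from 4 on chromosome 19 to 29 on chromosome 6. Per 100 Mb they ran from 6.51 on chromosome 19 to 21.1 on chromosome 17. The 5 bins just inside the threshold had a lower anti-FLAG enrichment of 1.2501 to 1.2539, and the 5 just outside had 1.24565 to 1.24951.

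**Figure D1:**
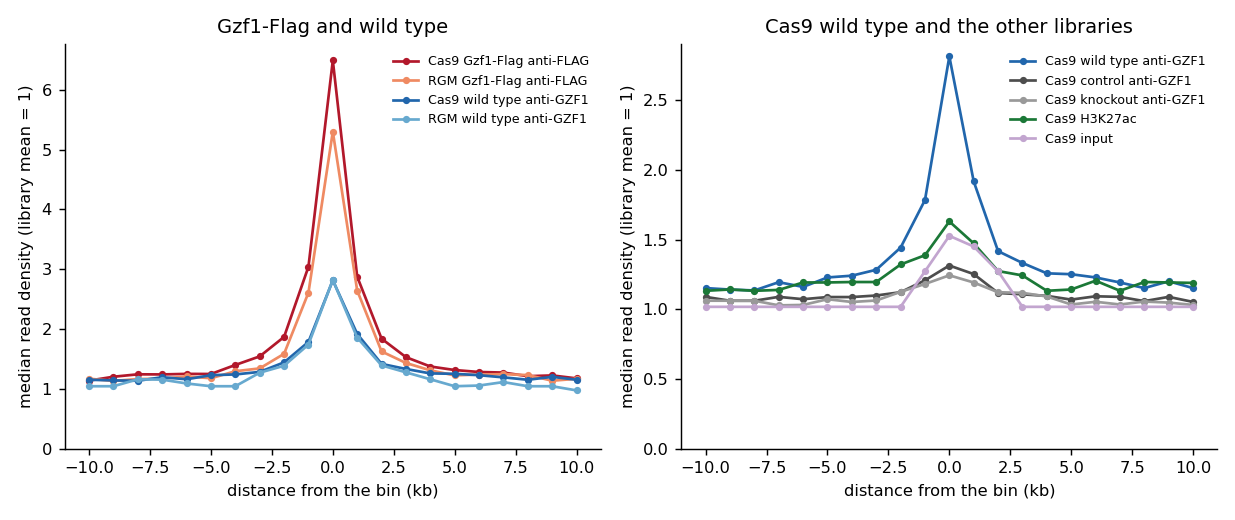
Median read density (library mean = 1) by distance in kb from the shared bins, over 347 bins. Left, anti-FLAG in both lines peaked at 6.49 and 5.30 and wild-type anti-GZF1 at 2.82 in each line, and right, on a scale of its own, the control (1.32), the knockout (1.245), H3K27ac (1.63) and the input (1.53) rose less.

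The anti-GZF1 signal was raised at a large share of the shared bins in both wild types, in libraries the rule did not use. In Cas9 wild type 164 of 347 bins had a local enrichment of 1 or more (47.3%, 95% exact binomial interval 41.9 to 52.7), against 0.482% of all autosomal bins. In RGM wild type 195 did (56.2%, 50.8 to 61.5), against 2.32%. The same 136 bins passed in both (39.2%, against 0.38% of all bins). Another 28 passed in Cas9 only (8.07%, against 0.102%), 59 in RGM only (17.0%, against 1.94%) and 124 in neither (35.7%, against 97.6%). The interval covers the counting of bins only, and adjacent bins share fragments and are not independent.

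Cas9 wild type had a median enrichment of 0.95 (quartiles 0.61 and 1.33), and RGM wild type one of 1.11 (0.59 and 1.63). With the same antibody it was 0.20 in the control, where 2 of 347 bins reached 1 (0.576%, against 0.0398% of all bins), and 0.12 in the knockout. Wild type and control thus differed at these bins although neither is labelled as a knockout, and the labels do not say how the control was made. Whether this difference comes from the cells or from the libraries cannot be told apart with 1 library each. Median wild-type density was 2.82 in each line, and 1.79 and 1.92 in the bins beside the peak in Cas9.

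**Figure D2:**
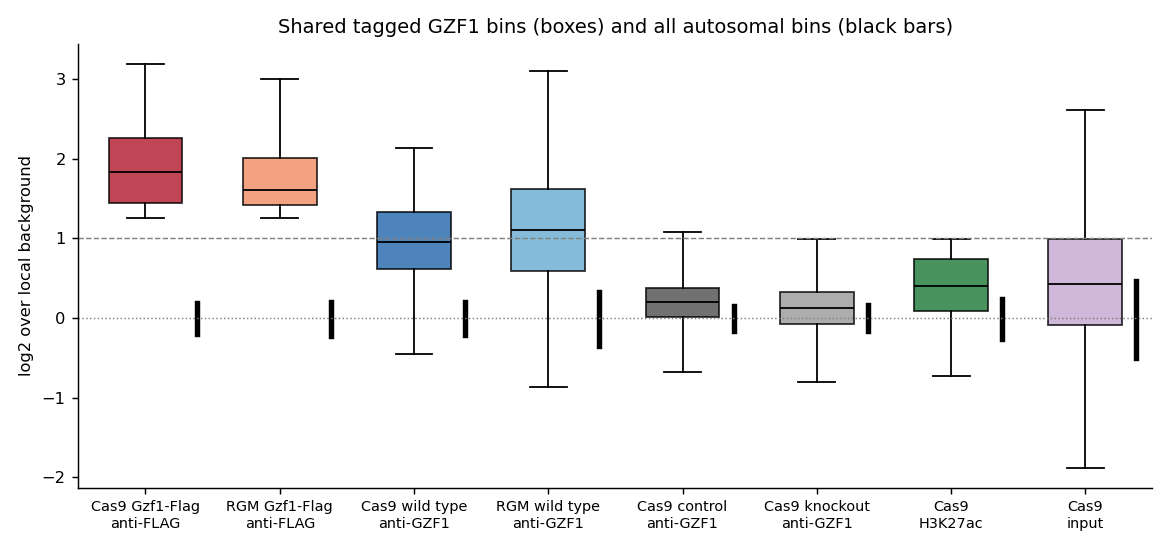
Local enrichment (log2 over the surrounding 20 kb) of the 347 shared bins in each of 8 libraries, as boxes with median, quartiles and full range, beside black bars that span the quartiles of all autosomal bins. The wild-type boxes (medians 0.95 and 1.11) stand above those of the control (0.20) and the knockout (0.12), while the input box reaches from a lower quartile of −0.09 to an upper one of 0.99.

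H3K27ac and input moved with the wild-type signal, and their part in it was not tested. The input, which has no antibody, was at 1 or more in 86 of the 347 bins (24.8%) against 7.48% of all bins, with a median of 0.43. In those 86 bins Cas9 wild type had a median of 1.253 and RGM wild type 1.63, with 0.75 for H3K27ac. In the 90 bins with an input enrichment below 0 the wild-type medians were 0.77 and 0.98, with 27 (30%) and 41 (45.6%) bins at 1 or more. The wild-type signal was thus lower there than in the 86 bins. Over all autosomal bins, whatever their input, the shares at 1 or more were 0.482% in Cas9 and 2.32% in RGM wild type. The input had 3.93 reads per autosomal bin, so the split by input is imprecise. Across the 347 bins the Spearman correlation with H3K27ac was 0.47 for Cas9 and 0.52 for RGM wild type, and −0.30 and −0.13 for Cas9 and RGM anti-FLAG. The points of these correlations share libraries and neighbouring fragments. The rule also kept only bins with H3K27ac below 1, and chose them by anti-FLAG. The anti-FLAG correlations are therefore a description of chosen values and cannot be set against those of the wild types.

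The 80 strongest bins, with a lower anti-FLAG enrichment of 2 or more, had the highest wild-type signal at a moderate level of H3K27ac. Cas9 wild type had a median of 1.39 there and RGM wild type 1.52, with 60 (75%) and 67 (83.75%) at 1 or more, and 0.37 for H3K27ac and 0.42 in the input. The 102 bins from 1.5 to under 2 had wild-type medians of 0.79 and 0.88, with 0.26 for H3K27ac and 0.24 in the input. The 165 bins from the threshold to under 1.5 had 0.84 and 1.03, with 0.56 and 0.55. The middle class thus had the lowest values in all 4 of these libraries, and the wild-type signal did not follow anti-FLAG strength in steps. The Spearman correlation between the anti-FLAG libraries was 0.70 and between the wild types 0.61. Between antibodies it was 0.17 in Cas9 and 0.26 in RGM. The rule had cut the anti-FLAG values at the threshold. Correlations that include them describe chosen values and cannot be set against that of the wild types.

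**Figure D3:**
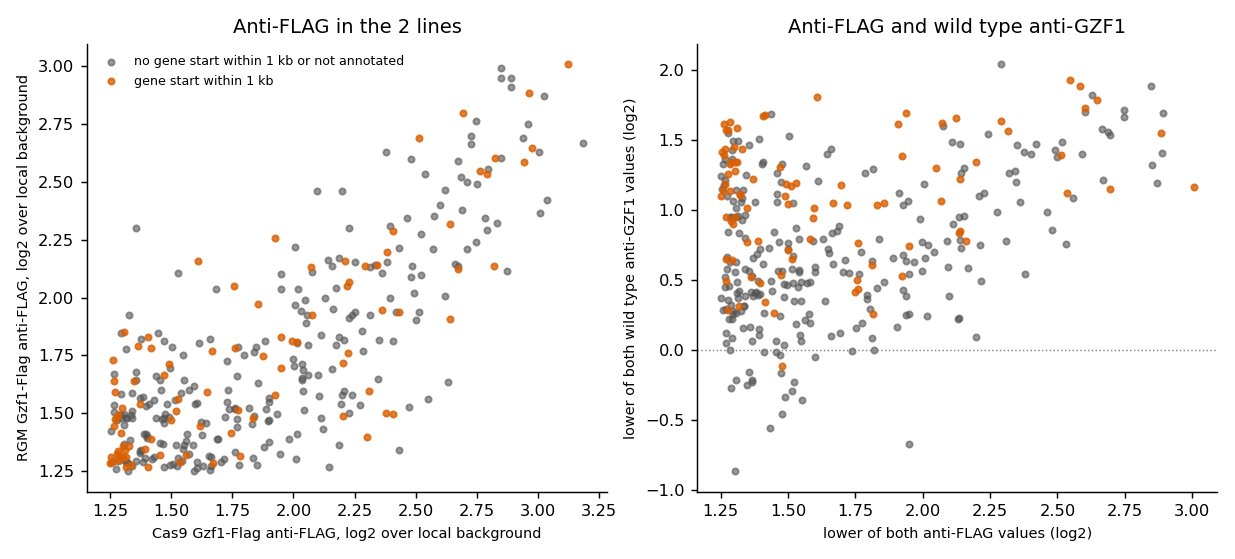
Each point is 1 of the 347 shared bins, orange where a RefSeq gene start lies within 1 kb. Left, local enrichment (log2) of anti-FLAG in RGM against Cas9 (Spearman correlation 0.70), and right, the lower of both wild-type values against the lower of both anti-FLAG values, where the 80 bins at 2 or more had wild-type medians of 1.39 and 1.52. The rule had chosen the bins by both anti-FLAG values.

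For comparison, 505 bins passed both anti-FLAG thresholds but had H3K27ac at 1 or more, with the knockout below 1. They had wild-type medians of 1.4995 in Cas9 and 1.96 in RGM, an input median of 1.33 and a knockout median of 0.42. The 93 with the knockout at 1 or more, of which 89 had H3K27ac at 1 or more as well, had 1.91 and 2.48. There the control stood at 1.90, the knockout at 1.80 and the input at 2.34. H3K27ac and the knockout set these groups of bins apart by the rule, and of the libraries it did not use both wild types, the control and the input had higher medians in each of them than in the shared bins. Bins at the threshold in one line and under 0.5 in the other also differed from the shared ones. The 81 of Cas9 only had wild-type medians of 0.48 and 0.36, and the 328 of RGM only had 0.58 and 1.27. In Cas9 and RGM wild type, 18.5% and 14.8% of the former stood at 1 or more, and 22.3% and 64.9% of the latter. The shared bins had 47.3% and 56.2%, and the 505 bins had 90.9% in each, so a raised wild-type signal was not particular to the shared bins. No test was possible with 1 library per group.

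Shared bins lay near genes more often than autosomal bins in general. An annotated gene end, either start or end, lay within 5 kb in 193 of 347 (55.6%, interval 50.2 to 60.9), against 25.1% of all bins. A further 71 (20.5%, against 33.8%) lay inside a gene only and 83 (23.9%, against 41.1%) had neither. A RefSeq gene start lay within 1 kb of 91 of the 337 bins on chromosomes with start annotation (27.003%, 22.3 to 32.1), against 3.3%. This share was 29.4%, 24.0% and 25.6% in the 3 classes of rising anti-FLAG strength. It was 43.9% in the bins left out for H3K27ac alone, 6.58% in those of Cas9 only and 28.6% in those of RGM only. The 299 genes with a shared bin inside or within 5 kb (0.636% of 47038) were 214 protein-coding genes, 61 long non-coding RNA genes, 10 pseudogenes, 5 tRNA genes and a few of other kinds.

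**Figure D4:**
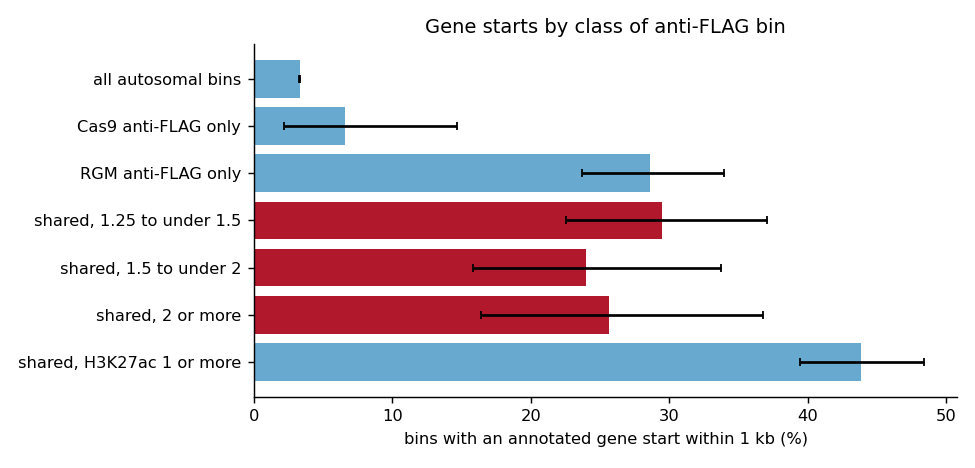
Share of bins (%) with a RefSeq gene start within 1 kb, in the shared bins split by their lower anti-FLAG enrichment (red) and in other sets (blue), with 95% exact binomial intervals. The 3 red bars (29.4%, 24.0% and 25.6%) overlap in their intervals, all autosomal bins had 3.3%, and the bins left out for H3K27ac alone had 43.9%.

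By the lower of both anti-FLAG enrichments the strongest shared bin lay in the IG-DMR, and its neighbours on both sides passed the rule as well. Its 3 bins run from 109526001 to 109529000 on chromosome 12, within Gm34081, a long non-coding RNA gene. Anti-FLAG reads were 134.6, 368.5 and 116.3 in Cas9 and 236.5, 460.35 and 143.35 in RGM, and the middle bin ranked first by lower enrichment (3.12 and 3.01). Wild-type anti-GZF1 had 31, 55 and 24 reads in Cas9 and 28, 42 and 31.15 in RGM. In the outer bins the enrichment reached 0.49 and 0.26 in Cas9, 0.72 and 0.95 in RGM, so the rise with anti-GZF1 passed 1 in the middle bin only. The middle bin ranked 101 of 347 by the lower wild-type value. The control had 54.6, 59.4 and 69 reads and did not peak there. Input had 0, 0 and 2 reads, where the exact Poisson interval of a count of 0 reaches a density of 0.94. Of all bins between Dlk1 and Meg3 these 3 were the shared ones.

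Most other bins at the top lay in or by genes, many of them far from a gene start. Slc35d2, which encodes a nucleotide sugar transporter of the Golgi, came second (chromosome 13, 64123001 to 64124000, inside the gene). It had 563.55 reads in Cas9 and 600.4 in RGM anti-FLAG, 190.95 and 69 in the wild types, 49.25 in the control, 42 in the knockout, 30.65 for H3K27ac and 9.35 in the input. The anti-FLAG density of 20.7 and 22.7 stood beside 8.10 and 8.01 in the wild types, while control (1.38) and knockout (1.28) were little above their library means. Inside Usp25, a deubiquitinase gene, 2 adjacent bins from 77041001 on chromosome 16 had 381.15 and 329.6 anti-FLAG reads in Cas9 and 339.55 and 255.65 in RGM. Wild-type enrichment in these bins stood at 1.41 and 1.48 in Cas9, at 1.58 and 1.82 in RGM, and H3K27ac (0.27 and −0.13) and input (−0.26 and 0.13) were near 0.

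The longest stretch, 4 bins from 62845001 to 62849000 on chromosome 11, lay between Trim16, which encodes a tripartite-motif protein, and Fbxw10 and ran into the start of the latter. Anti-FLAG reads along it were 177.5, 540.45, 408.3 and 165.6 in Cas9 and 147.85, 382.6, 331.9 and 117.65 in RGM. Its 2 inner bins had anti-GZF1 signal too, where Cas9 wild type stood at 1.82 and 1.39, RGM wild type at 1.54 and 1.85. H3K27ac was 0.22 and −0.04 there. The TTACGGT run shown above for Fbxw10 lies in the bin from 62847001.

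Within 1 kb of a gene start, the bins among the first 10 by wild-type signal included those of Slc16a3, Urod, Sez6 and Cald1. Slc16a3 encodes the lactate exporter MCT4, and its bin (chromosome 11, 120950001 to 120951000) had an anti-FLAG enrichment of 2.98 and 2.65 and a wild-type enrichment of 1.79 and 1.99. Its input was raised too, at 1.49 from 17.6 reads. The Urod bin (chromosome 4, 116994001 to 116995000) had 541.75 and 462.05 anti-FLAG reads and 248.95 and 82.15 wild-type reads, the most of the top 20 in Cas9 wild type. Its enrichment was 0.87 in the control and 0.78 for H3K27ac, higher than in most shared bins. The bin over an annotated end of Sez6, a gene of neurons, had 1.93 and 2.23 in the wild types (chromosome 11, 77930001 to 77931000).

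Other bins of the top 20 lay in or by the following genes. Nova2 encodes a neuronal splicing factor, and the bin inside it (chromosome 7, 18962001 to 18963000) had an enrichment of 2.96 and 2.75 with anti-FLAG and 1.71 and 2.02 in the wild types. Nav2, a neuron navigator gene, had 3.19 and 2.67 and 2.09 and 1.21 (chromosome 7, 49522001 to 49523000). Ptk2b encodes a cytoplasmic tyrosine kinase and had 3.01 and 2.63 and 1.82 and 2.01. Csmd3, Lurap1l, Gnal, Gm10076, Gm33257, 1700122O11Rik and the pair C030034I22Rik and A930029G22Rik were also there. Adjacent bins on chromosome 10 from 41003001 and 41004001 and a bin on chromosome 9 from 40821001 had no gene within 5 kb. In each of the top 20 bins both wild types reached 1.

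By wild-type signal the first was a bin 3170 bases from Ccnd1, the cyclin D1 gene (chromosome 7, 144943001 to 144944000). It had 229.9 reads in Cas9 and 107.9 in RGM wild type (enrichment 2.04 and 2.43), 477.85 and 359.05 with anti-FLAG, 73.25 in the control and 66.05 in the knockout. A bin by Rn4.5s (chromosome 6, 47650001 to 47651000) was also among the first 10, with 1.80 and 3.10, but its input stood at 1.81. At the other end, a bin inside the zinc-finger gene Zfp790 had 0.37 and −0.87, one inside Lsamp, a cell adhesion gene, 0.59 and −0.56, and one on chromosome 17 from 7533001 had 1.15 and −0.67. The RGM values of these 3 rested on 4.9, 2 and 6 reads.

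Few genes of the lists on imprinting and development had a shared bin. Of 45 imprinted genes 4 had one (8.89%), namely Gm34081 at the IG-DMR, Grb10, Zrsr1 and Commd1, the last pair through 1 bin. Of 39 genes of the proteasome and ubiquitin system 2 did (5.13%), Pomp and Usp25. None did of 20 genes of GDNF and RET signalling, 23 pluripotency genes, 19 genes of DNA methylation and imprint maintenance, 45 BTB zinc-finger genes and 18 germline genes. With 0.636% of all genes having one, such a count of 0 is near the background.

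Of the imprinted genes outside the Dlk1-Dio3 domain, Zrsr1, a retrogene within Commd1, had 307.45 and 178.35 anti-FLAG reads in its bin (enrichment 2.31 and 1.60) and 1.01 and 1.52 in the wild types, at 0.95 for H3K27ac, close under the limit of 1. Grb10, which encodes an adaptor that restrains insulin signalling, had 84.7 and 100 anti-FLAG reads in its bin (chromosome 11, 12025001 to 12026000). With 1.28 and 1.26 it was among the weakest, while the wild types stood at 1.18 and 1.68. Pomp, a proteasome assembly factor gene, had 506.65 and 378.7 anti-FLAG reads, with 1.08 and 1.13 in the wild types, −0.08 for H3K27ac and −0.85 in the input (chromosome 5, 147874001 to 147875000, inside the gene).

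Over all shared bins the knockout had slightly fewer anti-GZF1 reads for its depth than the control. The sums were 15251.1 reads and 17626.8 reads, a depth-scaled ratio of 0.940 (95% exact binomial interval 0.920 to 0.960, counting error only). The bins beside them had 0.987, which leaves 0.952 (0.931 to 0.973) relative to the flanks. It was 0.891 (0.852 to 0.933) in the 80 strongest bins and 0.983 (0.952 to 1.01) in the 165 weakest. The rule itself used the knockout, and without its exclusions the ratio over 945 bins was 1.04 (1.03 to 1.05), so the ratio cannot be read as an effect of the knockout on shared bins. Of 305 bins with at least 60 reads in both libraries together, 26 had an interval below the flank ratio (8.52%, against 5.81% of all bins) and 7 above it (2.30%, against 5.76%).

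**Figure D5:**
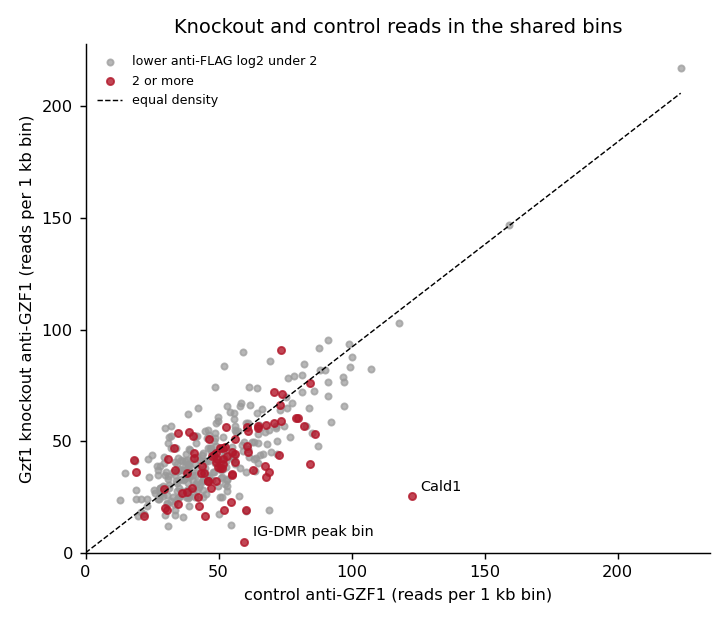
Anti-GZF1 reads per 1 kb bin in the Gzf1 knockout against the control for the 347 shared bins, red where the lower anti-FLAG enrichment was 2 or more, with the line of equal density. Most points lie along the line, and the IG-DMR bin (5 reads against 59.4) and the Cald1 bin (25.4 against 122.55) lie far below it.

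A few bins had far fewer reads in the knockout. The IG-DMR bin had 5 against 59.4 in the control, a ratio of 0.0914 (0.0288 to 0.227). The bins beside it were low in the knockout too, and relative to the surroundings the ratio was 0.209 (0.0660 to 0.520). A bin inside Cald1, the gene of the actin-binding protein caldesmon (chromosome 6, 34709001 to 34710000, with an internal RefSeq start of the gene in it), had 25.4 against 122.55 reads. Its ratio was 0.225 (0.138 to 0.341), or 0.278 relative to the flanks. This was 1 of the 2 shared bins raised in the control (enrichment 1.02), with 518.15 and 444.75 anti-FLAG reads and 2.05 and 1.88 in the wild types.

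The bin in Ntn4, a netrin gene, had 0.333 (18.5 against 60.3 reads, chromosome 10, 93688001 to 93689000). Relative to the flanks, Gm33257 had 0.377 (0.210 to 0.648). These were chosen as low among 347, so their intervals support nothing beyond counting error in a selected bin. The highest ratios, not set against the flanks, were 2.02 in the bin of Gm30272 and Vat1l, 1.92 by Gm2716 and Cnep1r1 and 1.79 in St8sia5, with wild-type enrichment of 0.17 to 0.90.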

How the data were processed

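The deposited table gives, for 8 of the 12 libraries, estimated read counts (expected counts) per 1 kb bin of mm10. Per the submitters' processing notes, the authors used cutadapt, Bowtie2 2.5.4, SAMtools and deepTools, and any filter on duplicates or mapping quality is not given in the sources used here. 100% of values were multiples of 0.05, as for reads split between bins, and no scaling to depth was seen. V65 control, V65 Gzf1-Flag, RGM control and a further RGM Gzf1-Flag library, all with anti-FLAG, were not analysed here.

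Each library was divided by its autosomal mean. Intervals are 95% exact Poisson, binomial or Clopper-Pearson ones and cover counting error only, since reads are not independent molecules. Gene ends, starts and promoters came from tables of RefSeq (GRCm38.p6). The table of starts and promoters is not complete and was not used for chromosome 18, so shares of bins near a start are lower limits, for the shared bins and for all bins. Correlations are Spearman's. With 1 library per group nothing was tested.

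The bins and gene lists were chosen with earlier results of these data known. Named were the 20 bins highest by the lower anti-FLAG value, the 10 highest and 3 lowest by the lower wild-type value, the 5 lowest and 3 highest knockout ratios among bins with 30 control reads, the 5 nearest the threshold on each side, and bins within 5 kb of a listed gene, of which those of most weight are printed. The promoter genes with the 7-base run were chosen after their values were seen, as were the run itself, the minimum of 60 reads and the classes of anti-FLAG strength. The planned motif search in whole bins used promoters instead. Alternatives were other pseudocounts, backgrounds, thresholds, scaling and filters. The calculation was tested on simulated data. Python 3.11.15, numpy 2.4.6, pandas 2.3.3, scipy 1.17.1 and matplotlib 3.10.9 were used.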

Additional observations from a re-analysis of the deposited data

Results flagged for a closer look

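In 3 shared bins the anti-GZF1 signal reached a log2 enrichment of 1 in one wild type and lay below local background in the other. This difference was not tested, with 1 library each. The share of all autosomal bins with such a pair of values is not given here, so the count of 3 cannot be set against background. On chromosome 17 from 7533001, with no gene within 5 kb, Cas9 wild type had a log2 enrichment of 1.15 (105.65 reads) and RGM wild type −0.67 (6 reads), while anti-FLAG had 309.3 and 139.15 reads. On chromosome 17 from 45473001, nearest to Spats1, the order was the other way, −0.11 in Cas9 and 1.38 in RGM (44 and 44.25 reads). On chromosome 5 from 148774001, nearest to 4930505K14Rik, it was −0.013 and 1.01.

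Chromosome X, which the rule left out, had 18 of 171032 bins (0.0105%) that met the same limits.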

How the results depend on the processing

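Of 98 recomputed values 50 moved by less than their interval, or less than 1.5 times for the count of bins. With 1 library per group no replicate could be left out. No paired analysis was possible because each group has 1 library. The count of shared bins was 347, and depended most on the pseudocount and the limits: 686 with a pseudocount of 0.25 (286 of the 347 among them), 219 with 1, 1312 and 182 with anti-FLAG thresholds of 1 and 1.5, 945 with no exclusion, and 201 with H3K27ac below 0.5, a setting added after the data were seen. Shares at 1 or more in Cas9 wild type (47.3%) were 53.2% and 39.3% with pseudocounts of 0.25 and 1, 53.0% with threshold 1, 75.6% with no exclusion, 40.7% with an input of 0.25 to 3 times its mean, 38.7% with input enrichment below 1 (also added after the data were seen) and 31.3% with H3K27ac below 0.5. For RGM wild type (56.2%) they were 47.9% with pseudocount 1, 67.8% with threshold 1, 78.7% with no exclusion, 49.5% and 48.3% with the input filters and 40.8% with H3K27ac below 0.5. In the control (0.576%) the share was 10.6% with no exclusion and 0% with H3K27ac below 0.5. In the input (24.8%) it was 44.5% and 9.13% with pseudocounts of 0.25 and 1, 39.8% and 18.7% with thresholds 1 and 1.5, 54.3% with no exclusion, 18.2% with the input of 0.25 to 3 times its mean and 12.4% with H3K27ac below 0.5.

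The median of Cas9 wild type (0.95) was 1.05 with pseudocount 0.25, 1.38 with no exclusion, 0.80 with input enrichment below 1 and 0.75 with H3K27ac below 0.5. That of RGM (1.11) was 1.26 and 0.98 with pseudocounts of 0.25 and 1, 1.37 with threshold 1, 1.75 with no exclusion, 1.00 and 0.99 with the input filters and 0.88 with H3K27ac below 0.5. The knockout ratio (0.940) was 0.969 and 0.912 with pseudocounts of 0.25 and 1, and 0.978 and 0.899 with thresholds 1 and 1.5. It turned to 1.04 with no exclusion, which adds 505 bins left out for H3K27ac alone and 93 with the knockout at 1 or more. The share near a gene end (55.6%) was 48.3% with pseudocount 0.25, 61.2% with 20 bins of background, 63.8% with threshold 1 and 49.1% with the input of 0.25 to 3 times its mean. The cause of these moves was not tested. The input (3.93 reads per bin) and RGM wild type (8.61) limit single bins most.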

Other observations

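The bins on chromosome X that met the same limits, scaled to the autosomal mean, had high values in both lines at a few genes. In 12 of the 18 the Cas9 wild-type anti-GZF1 enrichment was 1 or more, and in 10 the RGM one. The strongest lay by Rab39b, which encodes a small GTPase of vesicle traffic (X, 75578001 to 75579000). It had 473.65 anti-FLAG reads in Cas9 and 209.45 in RGM (enrichment 3.41 and 2.93), and 131.8 and 29.2 reads in the wild types (2.18 and 1.93). The control had 63.05 reads and the knockout 39. The bins on both sides of it also met the limits.

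A bin by Nbdy, a gene for a small protein of the mRNA decapping complex, had 3.17 and 2.79 with anti-FLAG and 1.42 and 2.18 in the wild types. Igsf1, an immunoglobulin superfamily gene, had 3.01 and 2.80 and 1.58 and 2.22. In the bin of 1700018G05Rik the wild types (2.03 and 2.69) were above anti-FLAG (1.53 and 1.62), with H3K27ac at 0.99 and the input at 1.255.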
